A study of Mus musculus with 3 samples.

Results

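Macrophages formed a small minority among cells sorted from the ganglia-bearing regions of the mouse atria. They were selected on measured values, as barcodes with at least 1000 unique molecular identifiers (UMIs, each 1 captured transcript), at least 500 genes, at most 20% mitochondrial UMIs and under 20 UMIs of the neuronal transcripts Snap25, Prph and Stmn2 per 10000, with a UMI in at least 4 of 8 genes: C1qa, C1qb, Csf1r, Lyz2, Cd68, Adgre1, Fcgr3 and Cd14. Of 8361 barcodes in the series, 107 met the definition. The mixed library held 24 of them, the anterior library 15 and the posterior library 68. The comparison group was the 1451 other barcodes that passed the same depth and neuron limits. Of these, 372 passed a fibroblast gate alone, 387 a glial gate alone and 68 an endothelial gate alone. The remaining 5533 barcodes of adequate depth lay at or above the neuron limit and are called neurons here.

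The mice were adult Baf53b-cre;lox-GFP animals, in which a neuronal promoter drives Cre and so marks neurons with GFP. Dissected atrial tissue of 10 mice was digested with enzymes, and fluorescent cells were sorted and loaded on the 10x Chromium 3′ V3 platform. All libraries carried the same genotype and pooled females and males. The mixed library came from 2-month-old, the anterior from 3-month-old and the posterior from 4-month-old mice, as labelled, with 1 library for each. The label of the 2-month-old library names no section and was read as the mixed sample of the design. Region, age and library therefore cannot be told apart, and no difference between regions has a replicate check. Values for the libraries are given in the order mixed, anterior and posterior. Cells labelled as neurons were the target of the sort, so the macrophages are cells that came through it and their number does not measure their density in tissue.

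Macrophages are phagocytes that occupy most tissues, including the heart and peripheral ganglia. They depend on signals through the Csf1 receptor, recognise and engulf dying cells and immune complexes, release the complement component C1q and chemokines, and present peptides on MHC class II molecules. In the heart, long-lived resident macrophages that carry Lyve1, Folr2 and Timd4 are distinguished from macrophages derived from Ccr2-positive blood monocytes, and MHC class II varies within both.

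C1qb, a gene of the definition, and C1qc and Pf4, which lie outside it, are among the genes that mark these barcodes, and their promoters carry the short sequence GAGGAA, the core recognised by the macrophage transcription factor PU.1 (Spi1). The 250 bases before each RefSeq start on GRCm38.p6 are shown, 5′ to 3′ on the gene's strand, with GAGGAA or its reverse complement TTCCTC in capitals, to place the motif relative to the start.
C1qb, chr4:136886201-136886450, minus strand: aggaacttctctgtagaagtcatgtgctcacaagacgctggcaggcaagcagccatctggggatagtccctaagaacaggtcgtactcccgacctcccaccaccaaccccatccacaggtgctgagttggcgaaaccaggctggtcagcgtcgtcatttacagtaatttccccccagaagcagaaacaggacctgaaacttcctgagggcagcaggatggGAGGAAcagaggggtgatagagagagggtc
C1qc, chr4:136892915-136893164, minus strand: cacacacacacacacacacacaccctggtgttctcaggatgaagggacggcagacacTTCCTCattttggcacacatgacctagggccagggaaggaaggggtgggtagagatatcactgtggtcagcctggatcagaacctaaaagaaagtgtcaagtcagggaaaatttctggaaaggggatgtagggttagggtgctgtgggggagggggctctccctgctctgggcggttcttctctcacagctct
Pf4, chr5:90772185-90772434, plus strand: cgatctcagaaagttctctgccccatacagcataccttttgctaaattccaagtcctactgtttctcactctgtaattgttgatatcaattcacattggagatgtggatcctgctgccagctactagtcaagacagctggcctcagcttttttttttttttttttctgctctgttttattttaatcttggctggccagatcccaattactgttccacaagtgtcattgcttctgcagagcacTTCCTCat
Each window held 1 match, which began 30 bases before the start in C1qb, 193 bases before it in C1qc and 8 bases before it in Pf4. Among the 25 genes outside the definition that most clearly separated macrophages from the other barcodes, 23 had a promoter in the RefSeq table, and 12 of the 23 (52.2%) had the motif on either strand in such a window. Counted per promoter, 12 of their 26 entries (46.2%) had it, against 23.3% of all 32851 promoters. A match is a description of letters, and binding was not measured. Spi1 itself was measured at 389, 412 and 406 counts per 1000000 UMIs (CPM) in the summed macrophage barcodes of each library, against 5.45, 6.54 and 23.5 CPM in the other barcodes.

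The macrophages took different shares of each library. They were 6.11% of the 393 barcodes below the neuron limit in the mixed library (exact Clopper-Pearson 95% interval, covering counting error only, 3.95% to 8.95%). The share was 3.48% of 431 in the anterior library (1.96% to 5.68%) and 9.26% of 734 in the posterior library (7.27% to 11.6%). The posterior share was the highest, and its interval did not overlap the anterior one. Median depth per macrophage barcode was 4738, 5302 and 8234.5 UMIs. Summed over barcodes these gave 141374, 85005 and 578687 UMIs, so a single UMI is worth 7.07, 11.8 and 1.73 CPM, and a count of 0 allows up to 21.2, 35.3 and 5.18 CPM. The posterior sum is thus the most precise. Libraries shared 2 or 3 barcode sequences in each pair, and none belonged to a macrophage.

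Few barcodes lay close to the limit of 4 genes on either side, but there was no gap at it. Among the barcodes below the neuron limit 1269 had none of the 8 genes, 153 had 1, 20 had 2 and 9 had 3. Inside the limit 9 had 4, 11 had 5, 12 had 6, 28 had 7 and 47 had all 8. The 9 barcodes just outside, with 3 genes, held a median of 10 UMIs of the 8 genes together, and the 9 just inside, with 4 genes, a median of 40. A further 3, 1 and 8 barcodes of the mixed, anterior and posterior libraries had 4 or more of the genes but lay at or above the neuron limit and were not counted. Lyz2, a lysozyme of myeloid cells, had the highest summed level of the 8, at 18334, 16399 and 13187 CPM. It was found in 23 of 24 mixed, 15 of 15 anterior and 67 of 68 posterior barcodes. Csf1r, the receptor for Csf1 and Il34, stood at 630, 694 and 505 CPM. C1qa stood at 7271, 4717 and 4199 CPM. These values chose the members and are given as a description.

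Markers that the definition did not use fitted its name for most barcodes. A list of 8 further macrophage genes, among them Mrc1, Ms4a7, Ctss, Tyrobp, Fcer1g, Aif1 and Laptm5, together made 9457, 11446 and 10081 CPM, and 24 of 24, 15 of 15 and 67 of 68 barcodes had a UMI of at least 1 of them. In the other barcodes their sum was 156, 120 and 296 CPM. After each barcode was thinned to 1000 UMIs, Fcer1g, the signalling chain shared by Fc receptors, was found in 87.5%, 93.3% and 83.8% of macrophages. The thinned share in glia was 0% in each library, and in neurons it was at most 0.4%. Thinning left out no macrophage. Median depths before thinning were 3242, 2581 and 4672.5 UMIs in glia and 57082, 33015.5 and 51383 in the neurons drawn.

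**Figure D1:**
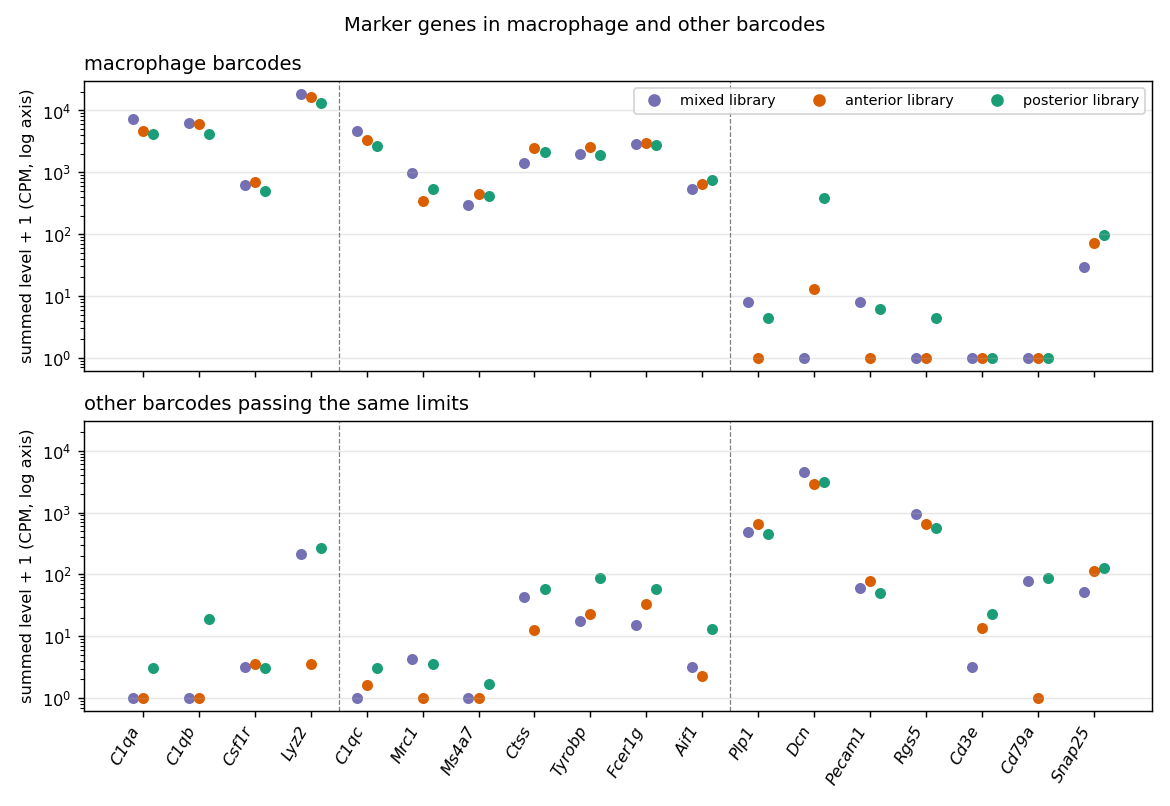
Summed level of marker genes plus 1 CPM (log axis) in the macrophage barcodes (upper panel) and in the other barcodes that passed the same limits (lower panel), 1 point per library. From left to right, separated by dashed lines, are genes of the definition, macrophage genes outside it, and markers of glia, fibroblasts, endothelium, mural cells, T cells, B cells and neurons. Points at 1 are sums of 0 UMIs, and Dcn in posterior macrophages, at 385 CPM, is the exception among the markers of other non-neuronal cells.

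Most markers of other cells were low. Cd3e of T cells had 0 UMIs in all 3 macrophage sums. The T or NK cell list of 8 genes stood at 56.6, 11.8 and 19.0 CPM in macrophages. In the other barcodes it stood at 75.2, 174 and 259 CPM, so the mixed library showed little difference. Of its 5 measured genes 3 were lower in macrophages and 2 were not. Cd79a of B cells also had 0 UMIs in all 3 macrophage sums. Ighm, the immunoglobulin heavy chain on the same B cell list, did not follow: it had 34, 8 and 78 UMIs from 15, 4 and 36 macrophages. After thinning it was found in 25%, 20% and 17.6% of macrophages, against at most 1.25% of glia, 0% of fibroblasts and at most 2.4% of neurons. The other barcodes held 637, 1.31 and 3580 CPM of Ighm, and its source in macrophages was not tested. The glial list stood at 63.7, 176 and 44.9 CPM in macrophages against 4254, 4562 and 3203 CPM in the other barcodes, with 5, 7 and 3 of its 8 genes at 0. The mural list had 0 UMIs in the mixed and anterior macrophages and 11 in the posterior ones. The fibroblast list was the exception: it had 0 UMIs in mixed, 3 in anterior and 828 in posterior macrophages, where it made 1431 CPM. Only 2 barcodes, both posterior, also passed the fibroblast gate, and they held 216 of the 223 posterior Dcn UMIs. No macrophage passed the glial, endothelial, mural, T or NK cell, or B cell gate. The neuron list of 8 genes made 177, 412 and 615 CPM in macrophages and 709, 1176 and 1085 CPM in the other barcodes, against 16818, 17025 and 14493 CPM in neurons. The list holds Snap25, Prph and Stmn2, which the neuron limit capped in both groups, and 2 of its 7 measured genes were lower in macrophages. Npy, the neuropeptide Y transcript, was found in 0%, 33.3% and 17.6% of thinned macrophages and in 9.52%, 21.7% and 19.4% of thinned glia. The source of these UMIs was not tested.

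The GFP transcript could be looked for in the mixed library, whose feature list holds eGFP. No UMI fell in its 24 macrophages. Neurons there had 2.76 CPM of eGFP, below the 21.2 CPM that a count of 0 allows, so a neuronal level would not have been detectable. Actl6b, the gene of Baf53b, also had no UMI there, against 70.4 CPM in the neurons of that library.

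Against the other barcodes, macrophages carried the apparatus of phagocytes at levels far above them. Because the definition was made on these same barcodes, this comparison is a description with no test. Genes with at least 10 CPM in the higher of the 2 sums in every library numbered 9181. Of these 687 (7.48%) were over 2-fold higher in macrophages in all 3 libraries and 1854 (20.2%) were over 2-fold lower, on the scale of log2(CPM + 1). The minimum of 10 CPM is under what a count of 0 allows in mixed and anterior macrophages, and 692 were lower when the counting interval also had to exclude 1 in every library, an alternative chosen after seeing the data. The median log2 ratio over all genes was -0.48, and -0.35 when the macrophage totals were rescaled by trimmed means (TMM), a shift of 0.13. Levels are UMI counts of transcript 3′ ends, which have no gene length term.

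Of 12 measured complement genes outside the definition 8 were higher and 2 lower (median log2 ratio 5.80). C1qc, the chain of C1q that the definition did not use, stood at 4711, 3306 and 2706 CPM, against 0, 0.654 and 2.12 CPM in the other barcodes. Its median in single macrophages was 58.7, 32.1 and 29.0 UMIs per 10000, with a highest value of 102, 61.6 and 88.8. All 3 C1q chains were found together in 22 of 24 mixed, 14 of 15 anterior and 53 of 68 posterior barcodes. The receptor for the C3a fragment, C3ar1, had 255, 306 and 287 CPM and no UMI in the other barcodes of any library, which makes it at least 156-fold, 156-fold and 407-fold higher. C3, the central complement component, went the other way, at 198, 141 and 957 CPM in macrophages and 524, 789 and 1977 CPM in the other barcodes. In the mixed library 82.1% of the macrophage C3 UMIs lay in 1 barcode.

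Receptors for antibodies and microbial products were higher in 18 of 19 measured members (median 5.19). Fcer1g stood at 2851, 2965 and 2801 CPM, nearly the same in each library, and its partner adaptor Tyrobp at 1988, 2612 and 1885 CPM. The inhibitory Fc receptor Fcgr2b stood at 368, 176 and 344 CPM. The activating receptor Fcgr4 was uneven, with 1, 14 and 151 UMIs from 1, 7 and 39 barcodes. Lysosomal genes were higher in 16 of 21 measured members (median 2.10). The cysteine protease Ctsb stood at 2023, 2176 and 2274 CPM against 331, 356 and 375 CPM, and was found in 22, 15 and 68 barcodes. Ctsl and Cd63 were not higher, with median log2 ratios of -0.44 and -1.16.

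Genes for clearing dying cells were mixed: 5 of 16 measured members were higher and 4 were lower (median 0.12). Mertk, the receptor that engulfs phosphatidylserine-marked cells, stood at 56.6, 58.8 and 39.7 CPM against 12, 16.3 and 9.40 CPM. After thinning, Mertk was found in 4.17%, 6.67% and 2.94% of macrophages and in 2.38%, 4.90% and 3.75% of glia. Its bridging ligand Gas6 was similar on both sides, at 269, 141 and 187 CPM against 335, 231 and 207 CPM. Mfge8, another bridging protein, was lower, at 7.07, 0 and 8.64 CPM against 197, 107 and 93.1 CPM. Of genes typical of resident macrophages 19 of 22 measured were higher (median 5.77), and of those typical of monocyte-derived cells 6 of 15 were higher and 1 was lower (median 2.07). The cell cycle list had 0 of 7 measured members higher and 1 lower, and a UMI of Mki67 was found in 1, 1 and 8 barcodes.

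The macrophages were rich in chemokine transcripts, with 12 of 18 measured members higher and 1 lower (median 4.56). Cxcl2, which attracts neutrophils, stood at 3692, 5306 and 3200 CPM and was found in 13 of 24, 13 of 15 and 51 of 68 barcodes. Pf4, the platelet factor that resident macrophages also make, stood at 5114, 1529 and 1106 CPM. Ccl6 stood at 1252, 1729 and 2226 CPM and Ccl9 at 488, 529 and 619 CPM, both of them nearly absent from the other barcodes. The monocyte attractants Ccl2, Ccl7 and Ccl12 stood at 1620, 247 and 473 CPM, at 1061, 94.1 and 354 CPM, and at 431, 424 and 233 CPM.

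A second set of chemokines was carried by few barcodes or by 1 library. Ccl8 made 4536 CPM in the posterior macrophages, from 31 barcodes, against 417 CPM from 6 mixed barcodes and 47.1 CPM from 1 anterior barcode. The barcode with most Ccl8 held 27.3% of the posterior UMIs. Cxcl9, an interferon-gamma-induced attractant of T cells, had 394 UMIs from 19 posterior barcodes (681 CPM) and none in the other libraries. Ccl5 had no UMI in the mixed macrophages, 3659 CPM in the anterior ones, where 85.9% of the UMIs lay in 1 barcode, and 1633 CPM in the posterior ones. Retnla, secreted by alternatively activated macrophages, reached 4364 CPM in the mixed library from only 5 barcodes. Il1b stood at 644, 1553 and 1498 CPM and Tnf at 99.0, 176 and 138 CPM.

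**Figure D2:**
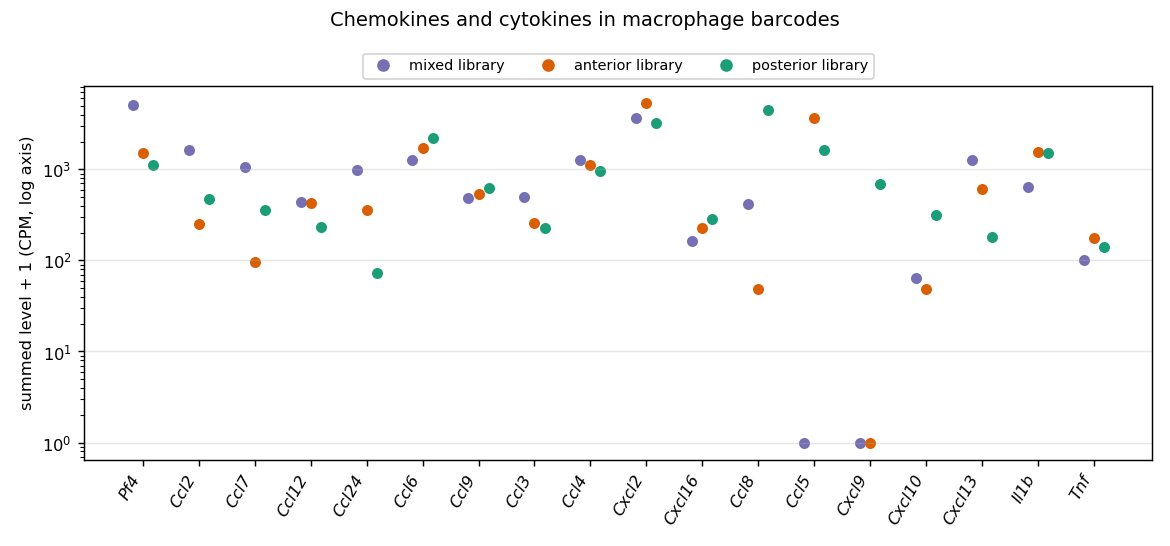
Summed level plus 1 CPM (log axis) of chemokines and cytokines in the macrophage barcodes of each library, 1 point per library. Ccl6, Ccl9, Ccl4 and Cxcl2 lie close together across libraries, and Ccl8, Ccl5 and Cxcl9 spread widely, Ccl8 from 47.1 to 4536 CPM.

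Several ligands that act on macrophages were lower in macrophages than in the other barcodes. Of 12 measured ligands 6 were lower in macrophages and 2 were higher (median -0.86). Csf1 had no UMI in mixed or anterior macrophages and 3.46 CPM in posterior ones, against 61.1, 60.1 and 61.4 CPM in the other barcodes. Fibroblast-gated barcodes held 151, 122 and 138 CPM of it. Tgfb2 followed the same pattern, at 0, 0 and 5.18 CPM against 90.5, 51.6 and 60.2 CPM. Cd200, which restrains myeloid cells, stood at 14.1, 0 and 17.3 CPM in macrophages, at 322, 297 and 187 CPM in the other barcodes and at 139, 117 and 128 CPM in neurons. Of 14 measured receptors for these ligands, 9 were higher in macrophages and none was lower (median 2.80). Cx3cr1 was among them at 106, 70.6 and 70.8 CPM, found in 7, 3 and 14 barcodes, and Sirpa, the receptor of Cd47, at 262, 294 and 340 CPM.

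Receptors through which nerves can act on macrophages were sparse. Of 32 receptors for transmitters, neuropeptides and purines 10 were measured, 4 of them higher and 2 lower (median 0.04). The UDP receptor P2ry6 stood at 240, 129 and 72.6 CPM against 3.82, 3.27 and 3.29 CPM, ratios of 63.0 (exact conditional Poisson 95% interval 27.5 to 168), 39.6 (12.7 to 145) and 22.1 (11.8 to 43.7). It was found in 17 of 24, 9 of 15 and 28 of 68 macrophages. The ATP-gated channel P2rx4 stood at 113, 118 and 133 CPM. The muscarinic receptor Chrm2 and the neuropeptide Y receptor Npy1r were lower, and Npy1r had no UMI in any macrophage. The nicotinic receptor Chrna7 had none either, where up to 5.18 CPM was possible in the deepest library. The neurotrophic factors Bdnf, Ntf3 and Gdnf had no UMI in macrophages. In the other barcodes Bdnf stood at 15.8, 10.5 and 10.8 CPM, below what a count of 0 allows in the mixed and anterior macrophages.

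Transcription factors followed the macrophage pattern, with 14 of 28 measured members higher and none lower (median 1.53). Irf8, which is needed for monocyte development, stood at 134, 235 and 200 CPM against 16.9, 38.6 and 47.0 CPM. Of genes for iron and haem 6 of 17 were higher (median 1.38): Hmox1, the haem oxygenase, at 467, 165 and 242 CPM, and the scavenger receptor for haemoglobin Cd163 at 297, 118 and 173 CPM. Among 20 measured lipid genes 9 were higher and 2 lower (median 1.17). Apoe, the most abundant of them at 23243, 16587 and 12141 CPM, was as abundant in the other barcodes, at 13776, 22528 and 14004 CPM. Of 16 measured interferon-response genes 4 were higher (median 1.05). Of 21 immediate early genes, which tissue digestion can induce, 3 were higher and none was lower (median -0.48, the median of all genes), and Fos stood at 1535, 1553 and 1652 CPM against 2446, 4330 and 4073 CPM.

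Not every barcode that met the definition had a C1q transcript. No UMI of any C1q chain was found in 14 of the 107 barcodes (13.1%): 1 mixed, 1 anterior and 12 posterior. They were not shallow, with a median of 9415 UMIs among the 12 posterior ones against 8095 in the 56 posterior barcodes with C1q. This split, and the genes named for it, were chosen after the values were seen, and no test applies to it. All 14 had Lyz2, 12 had Cd14 and 8 had Csf1r. Pf4, Folr2, Lyve1 and Ccl8 had no UMI in any of the 14, whereas they were found in 70, 55, 40 and 38 of the 93 barcodes with C1q.

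The barcodes without C1q carried genes of monocytes and dendritic cells instead. The monocyte chemokine receptor Ccr2 was found in 11 of 14, at 783 CPM, and in 21 of the 93 others, at 138 CPM. Plac8 was found in 9 of 14 and 21 of 93, Napsa in 11 of 14 and 7 of 93, and Lsp1 in 14 of 14 and 40 of 93. Ly6c2, a surface protein of classical monocytes, was found in 5 of 14 and 2 of 93. Cd209a, a lectin of monocyte-derived dendritic cells, had 61 UMIs in 4 of the 14. Clec9a, a receptor of conventional dendritic cells, had 7 UMIs, all in 1 barcode. Some values went against the atrial label. Chil3 had 194 UMIs in 3 of the 14, 136 of them in 1 barcode, and Ear1, Ear2 and Plet1 had 16, 43 and 29 UMIs in 2 barcodes. Chil3, Ear1, Ear2 and Plet1 are genes of lung alveolar macrophages. Airway and lung epithelial transcripts (Scgb1a1, Scgb3a2, Sftpc and Epcam) made 8361, 7.19 and 12899 CPM of the other barcodes. In macrophages they gave 0, 0 and 12 UMIs. Their part in the result was not tested.

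**Figure D3:**
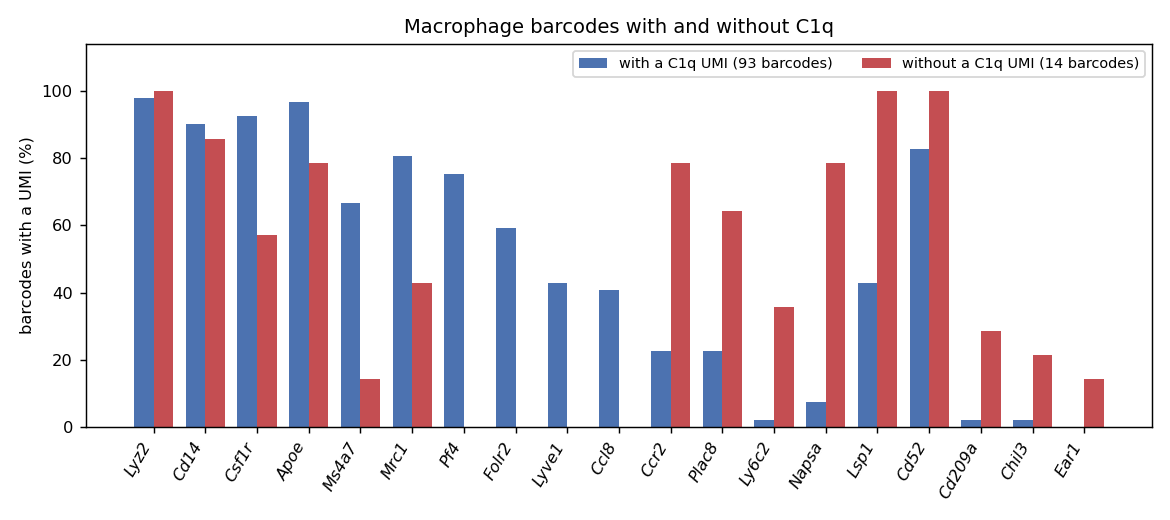
Share of barcodes with at least 1 UMI of each gene (bars from 0, percent) among the 93 macrophage barcodes with a UMI of C1qa, C1qb or C1qc and the 14 without one, over all libraries. Lyz2 and Cd14, genes of the definition that chose the barcodes, are common to both. Pf4, Folr2, Lyve1 and Ccl8 are at 0% without C1q, and Ccr2, at 78.6% against 22.6%, is commoner without it.

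Ccr2 was seldom found together with Lyve1 or Folr2. It was found in 3 of 24, 3 of 15 and 26 of 68 macrophages. After thinning to 1000 UMIs its share was 0%, 6.67% and 16.2%, with an exact 95% interval of 8.36% to 27.1% for the last. The thinned share was 0% in glia and fibroblasts and at most 0.2% in neurons. The 0 of 24 in the mixed library allows up to 14.2%, so the libraries' intervals overlap. Lyve1 and Ccr2 were found together in 0, 0 and 2 barcodes, and Folr2 and Ccr2 in 0, 0 and 5. Mrc1, a mannose receptor counted among the resident genes, was found in 1, 1 and 17 of the barcodes with Ccr2. Among all macrophages Mrc1 was found in 20, 8 and 53 barcodes, Lyve1 in 17, 6 and 17, and Folr2 in 19, 8 and 28. Each of these genes was thus less common in barcodes with Ccr2 than among all macrophages of the library.

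MHC class II divided the macrophages into a high and a low range. The class II genes H2-Aa, H2-Ab1, H2-Eb1 and Cd74 were summed in each barcode, and 10 UMIs per 10000 set as a boundary, with 8 of 107 barcodes within 2 times of it. Above it lay 12 of 24 mixed (50%), 8 of 15 anterior (53.3%) and 56 of 68 posterior barcodes (82.4%, exact 95% interval 71.2% to 90.5%). The median score was 433 in the high class and 0 in the low class. Most of the low class lay above the boundary of the resident score. With a boundary of 5 UMIs per 10000 for the sum of Lyve1, Folr2, Cd163, Mrc1, Cbr2, F13a1 and Timd4, 28 of the 31 barcodes low in MHC class II were high in resident genes. Of those 28, 2 had no UMI of Lyve1, Folr2, Timd4, Cd163 or Mrc1, and both had Ccr2 and no C1q. Of the 76 high in MHC class II, 43 were high in resident genes. The resident score ran without a gap, with 30 of 107 barcodes within 2 times of its boundary, and both classes are ranges of a score and not types. Median depth was 7645.5 UMIs in the MHC high and 5594 in the MHC low class.

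**Figure D4:**
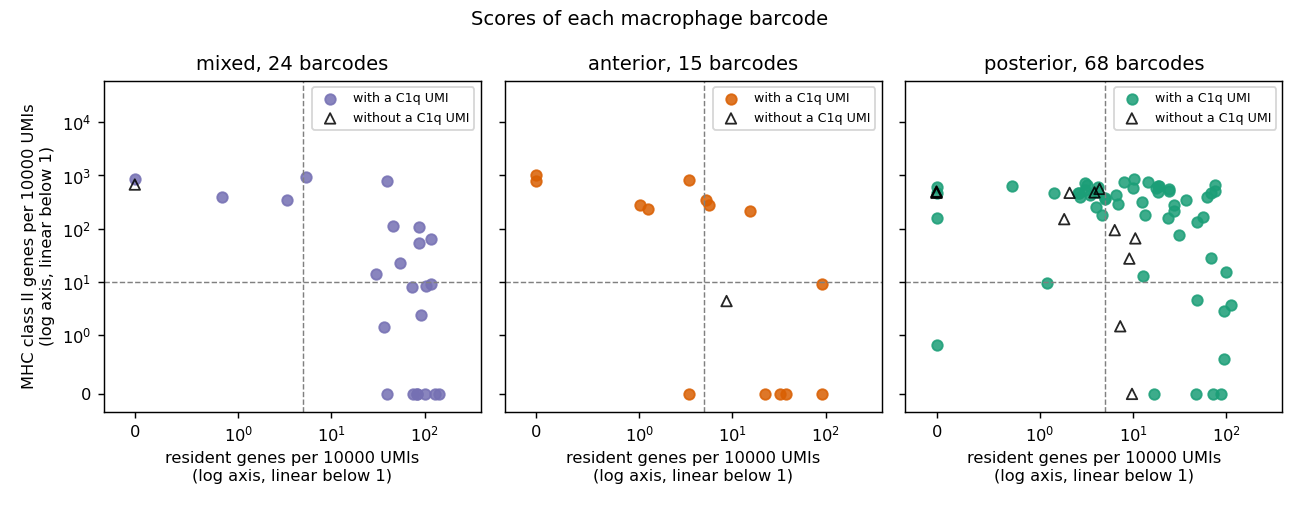
UMIs per 10000 of the 4 MHC class II genes (vertical) and the 7 resident genes (horizontal) in each macrophage barcode, both on log axes that are linear below 1, by library. Dashed lines are the boundaries at 10 and 5, and open triangles are barcodes without a C1q UMI. Barcodes low on the vertical axis lie to the right, 28 of 31 of them past the resident boundary.

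The classes were compared over libraries, each giving a high and a low sum, with edgeR's quasi-likelihood test and the library as a block. The 4 genes of the score were left out, and other class II genes are close relatives of it. Of 1019 genes 4 were higher in the high class (0.393%) and 7 lower (0.687%) at a false discovery rate (FDR, Benjamini-Hochberg) under 0.05. H2-DMb1 and H2-DMa, which load peptides onto class II molecules, were found in 61 and 69 of 76 high and in 5 and 10 of 31 low barcodes. H2-DMb1 had 428, 634 and 626 CPM in the high and 28.1, 0 and 40.8 CPM in the low class, and H2-DMa 628, 634 and 691 CPM against 98.2, 53.1 and 153 CPM. H2-DMb1 rose by a log2 fold change of 4.31 (SE 0.48, edgeR FDR 0.0175) and H2-DMa by 2.64 (SE 0.35, edgeR FDR 0.0269). The glycoprotein Cd52 rose by 2.08 (SE 0.29, edgeR FDR 0.0293) and the chemokine Ccl4 by 1.79 (SE 0.27, edgeR FDR 0.0329). All 4 were higher in the high class of every library, but Cd52 kept its call in 7 of 16 alternatives and Ccl4 in 8 of 16.

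On the low side 1 of the 7 genes called was on the resident list. Fcna, a ficolin that binds microbial sugars, had 1908, 902 and 1407 CPM in the low class against 143, 0 and 108 CPM in the high class. It fell by 3.99 on the log2 scale in the high class (edgeR FDR 0.0197) and was found in 18 of 31 low and 17 of 76 high barcodes. The endothelin receptor Ednrb fell by 3.03 (edgeR FDR 0.0293), from 13 of 31 low to 10 of 76 high barcodes. Fxyd2, Serpinb6a and Nupr1 fell by 2.04, 1.86 and 1.76, each past the same threshold. Marco and Cd209f also passed, with log2 fold changes of -6.24 and -2.81, but on few barcodes: Marco was found in 4 of 31 low barcodes, 1 in the mixed and 1 in the anterior library, and Cd209f in 8. Marco is also on the list of alveolar macrophage genes, and 1 of the 4 barcodes, in the posterior library, held 57 Chil3 UMIs. Lyve1 did not pass, at -3.40 (edgeR FDR 0.116), nor did Timd4 at -3.05 (edgeR FDR 0.0538) or Cd163 at -2.57 (edgeR FDR 0.0692). Of 21 resident-list genes tested, 20 had negative values and 1 was called lower, with a median of -1.47 against -0.03 for all genes tested. Among all 1019 genes tested 533 had negative values. Calls depended on each library: 2 genes were higher and 2 lower without the mixed library, 0 and 2 without the anterior, and 0 and 0 without the posterior, where 89 genes had an unadjusted edgeR p under 0.05. Among barcodes with a C1q UMI, an alternative chosen after seeing the data, 11 were higher and 14 lower.

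**Figure D5:**
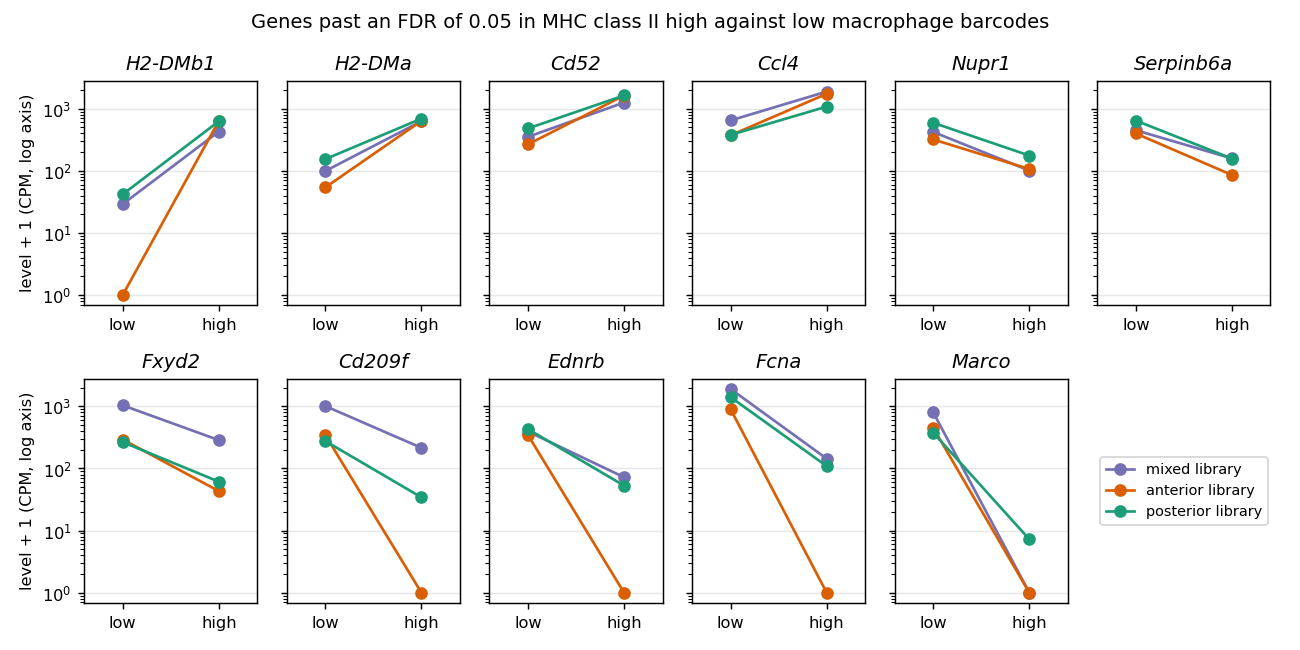
Level plus 1 CPM (log axis) in the summed MHC class II low and high macrophage barcodes of each library, joined by library, for the 11 genes past an edgeR FDR of 0.05. All lines of a gene run the same way, and points at 1 are sums of 0 UMIs.

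The same test on the resident score, with its 7 genes left out, gave 1 higher gene of 1104 (0.0906%) and 0 lower (0%). By unadjusted edgeR p under 0.05 there were 139, and DESeq2 called 13 higher and 6 lower. The 1 gene was Cxcl13, a chemokine that draws B lymphocytes, measured at 1603, 1152 and 318 CPM in the high class, with no UMI in any low class (log2 fold change 9.18, which depends on the prior count, edgeR FDR 0.0273). It came from 14 of 71 high barcodes, and 68.0% of the mixed UMIs lay in 1 of them. Of 9 MHC class II genes tested 8 had negative values (median -1.83) and of 9 monocyte genes all 9 (median -1.19), and none of these was called. Among all 1104 genes tested 537 had negative values (median 0.02). The 9 class II genes include the 4 of the MHC class II score, all 4 negative. Leaving out the mixed library gave 24 higher and 19 lower genes, among 2372 tested. Without the anterior or the posterior library 0 were called, with 173 and 57 at an unadjusted edgeR p under 0.05.

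Between regions, 176 of 9250 genes (1.9%) were over 2-fold higher in anterior and 148 (1.6%) in posterior macrophages with a counting interval that excluded 1. With TMM scaling the split turned to 130 higher in anterior and 231 in posterior macrophages. There was 1 library for each, so this compares libraries of different ages, and intervals cover counting error only. Genes of the definition chose the members in both libraries, and their levels are given above with no comparison. Of the 8 macrophage markers outside it none was past these limits. C1qc, for example, had 3306 against 2706 CPM (anterior to posterior ratio 1.22, interval 1.07 to 1.39).

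Posterior macrophages had more Ccl8 and Cxcl9, and the monocyte list was split. Of its 18 measured members 4 were higher in posterior macrophages (Ccr2, Plac8, Chil3 and Hp), 2 in anterior ones (Fn1 and Gngt2) and 12 in neither. Fn1, the matrix protein fibronectin, had 1435 CPM against 435 CPM (anterior against posterior), and Gngt2 had 871 against 372 CPM. Of the posterior Hp UMIs 76.0% lay in 1 barcode. The anterior to posterior ratio of Ccl8 was 0.0104 (0.00282 to 0.0266), that of Plac8 0.225 (0.125 to 0.376) and that of Ccr2 0.360 (0.162 to 0.700). For Cxcl9, with 0 anterior UMIs, the interval reached 0.0640. The interferon-related gene Gbp2b, with 0 anterior UMIs and 77 posterior UMIs from 19 barcodes, was also higher in the posterior library. Other genes at the posterior end rested on single barcodes. Lcn2 had 238 UMIs, 99.2% of them in 1 barcode. The fibroblast genes Col3a1, Col1a1, Lum, Mgp and Serping1 were found in 2 to 5 barcodes each, with 55.1% to 92.6% of their UMIs in 1, and 2 posterior macrophages passed the fibroblast gate. Chil3, named above also as a gene of lung alveolar macrophages, had 201 UMIs from 5 barcodes, 67.7% of them in 1.

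Anterior macrophages had more Lyve1, at 576 against 175 CPM (ratio 3.30, interval 2.30 to 4.69), but 63.3% of the anterior Lyve1 UMIs lay in 1 of 6 barcodes. Vsig4, a complement receptor of resident macrophages, had 753 against 55.3 CPM, with 73.4% in 1 anterior barcode, and the mixed library had 615 CPM from 11 barcodes. Cd207, the Langerin lectin, had 22 UMIs from 4 anterior barcodes, 69 from 3 mixed barcodes and 0 from the 68 posterior ones, where up to 5.18 CPM was possible. Ccl24, an eosinophil attractant, stood at 353 against 70.8 CPM. Arg1, at 788 against 76.0 CPM, and Il1a, at 376 against 25.9 CPM, had 68.7% and 68.8% of their anterior UMIs in 1 barcode each. With 15 anterior barcodes, single cells carried much of this end of the list.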

How the data were processed

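Single-cell RNA sequencing of 3 libraries, 1 per group, was analysed. The authors deposited raw UMI counts per gene and barcode, whole numbers with no normalization. Headers of the files name Cell Ranger 3.1.0 for the mixed library and 6.1.2 for both regional ones, whereas the submitters' processing notes name Cell Ranger 7.1.0, Seurat 4.4.2 and mm10. The annotations therefore differ, and Ifi30, for example, is not among the mixed features. Members and gene lists were chosen with earlier results of these data known. Counts were summed per library and class and scaled to CPM. Classes within macrophages were tested with edgeR 4.0.16 (R 4.3.3) with library as a block, and DESeq2 1.42.0 as an alternative. Intervals (scipy 1.17.1) cover counting error only. Named were the definition's genes, the 25 outside it with the highest smallest log2 ratio against the other barcodes, members of the lists, up to 12 genes per direction within macrophages past an FDR of 0.05, and the 10 most different per direction between regions. C1q-related names were chosen after their values were seen. The code was tested on simulated data. No doublet caller was run. Animals within a library are not separated, so p-values measure the spread between these libraries. Some genes are not reported here.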

Additional observations from a re-analysis of the deposited data

Results flagged for a closer look

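Apoc1, an apolipoprotein, went opposite ways in the regional libraries: its log2 ratio of macrophage against other barcodes was 2.34 in the anterior library and, at the posterior, -1.98. The difference was not tested. Levels were 153 against 29.4 CPM (anterior) and 10.4 against 44.0 CPM (posterior), and 92.3% of the anterior macrophage UMIs of Apoc1 lay in 1 barcode.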

How the results depend on the processing

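Directions were recomputed for the 25 genes that most separated macrophages from the other barcodes and the 20 most different between regions. They were also recomputed for the 11 genes called in the MHC class II test and the 1 in the resident test. None of these changed direction under the alternatives run, and the directions of other named genes were not recomputed. Among the 20 genes, those higher in posterior macrophages had 0 anterior UMIs, and Cd207 had 0 posterior UMIs. Removing barcodes or rescaling could not reverse the direction of such genes. The 25 genes were chosen as the most separated in the same comparison. For these genes an unchanged direction therefore says little about how firm the result is. The balance of genes between regions did change. It was 176 higher in anterior and 148 in posterior macrophages, and 130 and 231 under TMM scaling. Of 738 recomputed values 602 were held to be the same, among them 248 of 250 for the 25 genes and 171 of 173 for the 20. For counts of genes this meant staying within a set factor of the main count. For genes called within macrophages it meant keeping the call, and for other values moving by less than their spread or interval. Against the other barcodes, 396 genes were higher and 598 lower at a minimum of 50 CPM, 3653 were lower with no minimum, and 692 were lower when the counting interval had to exclude 1 in every library, an alternative chosen after seeing the data. Unthinned, 80.9% of posterior macrophages had a C1qc UMI and 38.2% a Ccr2 UMI, and 33.3% had a Ccr2 UMI when thinned to 2000 UMIs.

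The edgeR counts within macrophages moved with most settings. For MHC class II the genes higher and lower were 2 and 4 with at least 3 genes of the definition, 8 and 12 with at least 5, 1 and 2 without members passing another gate, 7 and 11 at 2000 UMIs, 1 and 3 with the boundary at the library median, 0 and 0 after thinning to 1000 UMIs (14 of 177 genes at an unadjusted p under 0.05), 8 and 13 with DESeq2, and 62 and 64 with no filter. Without the library block 1 gene was lower. After seeing the data, members with alveolar genes were removed, which left 2 lower, and members without C1q, which gave 11 and 14. Leaving out 1 library gave 0 to 2 higher and 0 to 2 lower. For the resident score the counts were 2 and 1 with at least 3 genes, 7 and 1 with at least 5, 5 and 0 at a neuron limit of 10, 7 and 1 without members passing another gate, 6 and 3 at the median boundary, 0 and 0 after thinning (40 of 218 unadjusted), 0 and 0 without members with alveolar genes, 12 and 5 without members lacking C1q, 13 and 6 with DESeq2, 48 and 45 with no filter, and 0 and 0 with no block. Leaving out 1 library gave 0 to 24 higher and 0 to 19 lower. The causes were not tested. By gene, the call was kept for Marco in 14 of 15 settings, Fcna in 12, H2-DMb1 in 11, H2-DMa in 10, Ednrb in 9, Fxyd2 in 8, Serpinb6a in 7, Cd209f in 6 and Nupr1 in 5, and of 16 settings for Cxcl13 in 10, Ccl4 in 8 and Cd52 in 7, where the log2 fold change of Cd52 was as low as 1.17. Marco, kept most often, had its low-class UMIs in only 4 barcodes. Between regions no paired analysis was possible because each group has 1 library. The class tests had the library as a block.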
